A study of Mus musculus with 18 samples.

Results

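Calcium/calmodulin-dependent protein kinase II (CaMKII) is encoded in the mouse by 4 paralogous genes, Camk2a, Camk2b, Camk2d and Camk2g, and these are 4 of the 54532 genes listed in the deposited tables. They were taken by gene symbol and joined over all libraries by gene identifier. The family was chosen by measured values, the counts of Camk2b, which had almost no reads in 1 group, the colorectal tumours of Il1f9 knockout mice. The values of that contrast are therefore given for the 4 genes as a description with no test. All 4 genes passed the filter on low counts in both tissues, among 18299 genes tested in colitis and 17859 in tumours.

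The study sequenced polyadenylated RNA in 18 libraries from C57BL/6 mice of 2 knockout lines. The product of Il1f5, now named Il36rn, occupies the IL-36 receptor without activating it, whereas that of Il1f9, now Il36g, is IL-36 gamma, a cytokine that activates the same receptor. The 10 colitis libraries came from a piece of 0.5 cm of distal colon after 5 days of 2.5% dextran sulfate sodium (DSS) in the drinking water and 2 days of plain water. They comprise 3 Il1f5+/+ (WT), 3 Il1f5-/- (KO), 2 Il1f9+/+ and 2 Il1f9-/- libraries. The 8 tumour libraries came from colorectal tumours of the azoxymethane (AOM)/DSS model, with 2 libraries each of Il1f5+/+, Il1f5-/-, Il1f9+/+ and Il1f9-/- mice. Every group had received DSS, so none stands for an untreated colon, and the labels name no promoter or Cre for either knockout allele and no ages. The design text counts mice as the replicates, so n below is the number of libraries, which that text presents as mice. Whether a tumour library held 1 tumour or several was not given in the sources used here.

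A CaMKII holoenzyme is a ring of subunits, each with a kinase domain, a regulatory segment that binds calcium-loaded calmodulin, and an association domain. Once calmodulin opens the regulatory segment, a neighbouring subunit phosphorylates a threonine in it, and the kinase then stays active after calcium has fallen. The alpha and beta isoforms are best known from neurons and the synapse, while delta and gamma are expressed in many tissues, including the heart, smooth muscle and epithelia.

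Total counts ran from 16621611 to 23776174 per library, mitochondrial genes took 2.01% to 3.56% of the counts, and the 10 most abundant genes took 4.78% to 6.86%. The 2 targeted genes were read first, as a check of the labels. Il1f9 counts were 232 and 90 in WT colitis against 9 and 1 in Il1f9 KO colitis, and 1652 and 752 in WT tumours against 2 and 0 in Il1f9 KO tumours. Il1f5, in contrast, had 0 counts in every WT library and in every library of the Il1f9 line, and had 36 to 45 counts in the colitis libraries labelled Il1f5 KO and 102 to 211 in the tumour libraries labelled Il1f5 KO. The reads in the Il1f5 gene therefore went against the labels of that line. Its WT libraries, at 0, did not differ from the libraries of the Il1f9 line. The reason for the reads was not tested, and every direction given for the Il1f5 line rests on the labels as they stand. Summed over its marker list, the epithelium reached 9931 to 23757 CPM (counts scaled to library size) in all 18 libraries, and none of its 9 markers was at 0. Squamous epithelium markers summed to 4.51 to 10.5 CPM in colitis and 80.9 to 695 CPM in tumours.

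The coding sequences of the paralogues are alike but distinct, which matters for reading a loss of 1 of them. The aligned bases of the longest coding sequences were 76.8% to 79.8% identical between pairs, the longest exact run shared by any 2 genes' transcripts was 23 to 34 bases, and no stretch of 150 bases, the length of 1 read, was shared by any pair. Stretches around the regulatory threonine are shown so that the paralogues can be compared at the site that keeps the kinase active. The windows of 63 bases lie in exon 11 of each transcript, with the threonine codon at bases 31 to 33, and are written 5′ to 3′ on the coding strand (GENCODE M21 transcripts, GRCm38). Capitals mark the 23 positions at which the 3 sequences are not all the same.
Camk2b, chr11:5988967-5989029, minus strand, codon 287: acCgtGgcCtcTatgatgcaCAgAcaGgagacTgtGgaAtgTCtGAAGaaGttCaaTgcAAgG
Camk2d, chr3:126797711-126797773, plus strand, codon 287: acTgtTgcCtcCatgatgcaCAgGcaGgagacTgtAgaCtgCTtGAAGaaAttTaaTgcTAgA
Camk2g, chr14:20760409-20760471, minus strand, codon 285: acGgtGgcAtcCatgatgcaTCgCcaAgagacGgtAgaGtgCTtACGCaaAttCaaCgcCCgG
The windows of Camk2b and Camk2d differ at 12 of 63 bases, those of Camk2b and Camk2g at 20, and those of Camk2d and Camk2g at 18. The Camk2a sequence is not shown.

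The family was mostly Camk2d and Camk2g in these tissues. On the scale of FPKM, which divides fragment counts by library size and gene length and so allows levels of different genes to be compared, the 4 genes summed to 12.1 to 17.7 in the colitis libraries and to 7.53 to 11.2 in the tumours. In colitis Camk2d took 42.7% ± 5.55 (SD, n = 10) of that sum, Camk2g 42.1% ± 6.67, Camk2b 11.8% ± 3.87 and Camk2a 3.40% ± 0.813. The order of Camk2d and Camk2g differed between groups. Camk2d had the larger share in all 5 WT colitis libraries, 41.1% to 52.4% against 35.4% to 39.8% for Camk2g, and Camk2g in the 3 labelled Il1f5 KO, 54.8%, 49.9% and 46.3% against 34.4%, 37.9% and 38.1%. The Il1f9 KO colitis libraries split, with 39.2% and 44.1% for Camk2d and 45.2% and 40.2% for Camk2g. The Camk2b shares, 6.21% to 17.5%, lay above all Camk2a shares, 2.10% to 4.76%.

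That order depends on the length used for Camk2d. The deposited length of Camk2d, 22493 bases, is the union of the exons of 28 annotated transcripts, and its longest coding transcript has 5524 bases. With the longest coding transcript of each gene in place of the deposited length, Camk2d took 62.2% and Camk2g 26.4% of the family in colitis, and 62.4% and 23.0% in tumours. In the 6 tumour libraries outside the Il1f9 KO group, on the deposited length, Camk2d took 37.6% ± 7.26, Camk2g 37.8% ± 2.59, Camk2b 16.4% ± 3.56 and Camk2a 8.21% ± 2.38 (SD, n = 6). In the 2 Il1f9 KO tumours Camk2b took 0.234% and 0.364%, and Camk2d 62.7% and 60.3%.

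**Figure D1:**
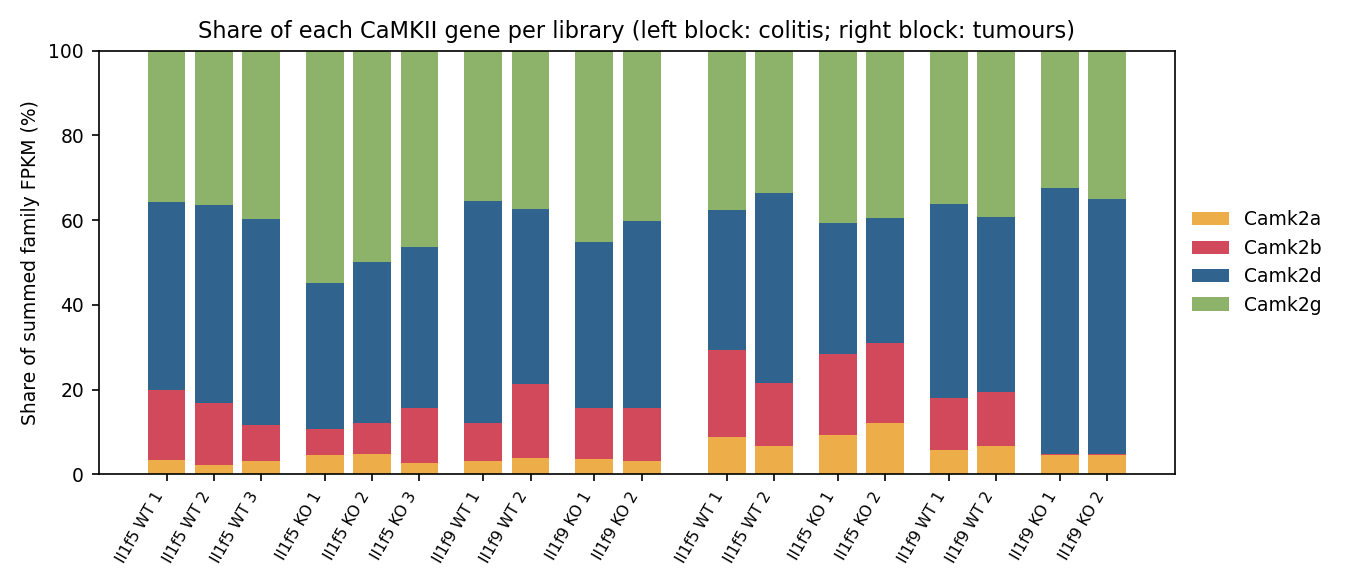
Share of each CaMKII gene in the summed FPKM of the family (vertical axis, %), 1 stacked bar for each of the 18 libraries, colitis on the left and tumours on the right. Camk2d and Camk2g fill most of every bar, and the Camk2b segment of 0.234% and 0.364% in the 2 Il1f9 KO tumours is too thin to see.

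Camk2b (ENSMUSG00000057897, chr11:5969644-6066362, minus strand), which encodes the beta subunit, the isoform that binds actin filaments in neurons, was near its floor in 1 of the 8 groups. Levels of a single gene are given from here on as CPM scaled by the trimmed mean of M-values (TMM) over the 18 libraries. Camk2b stood at 9.69 and 10.4 CPM in the WT tumours of the Il1f9 line and at 0.181 and 0.300 CPM in the Il1f9 KO tumours, or 158 and 181 counts against 3 and 5. The level was 41.8-fold lower in the KO tumours over the summed counts of 339 and 8. The fitted log2 fold change was -5.36. Of the 17859 genes tested in that comparison, 13 had a log2 fold change as low or lower than Camk2b, itself included, and of the 13761 with a mean log2 CPM of at least 1 there were 3.

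In the other pairs of WT and KO groups Camk2b overlapped. Camk2b read 18.8, 16.1 and 9.67 CPM in Il1f5 WT colitis and 9.98, 10.7 and 18.1 CPM in colitis labelled Il1f5 KO. In the Il1f9 line it read 10.3 and 22.7 CPM in WT colitis and 17.6 and 13.8 CPM in KO colitis. The tumours of the Il1f5 line had 19.5 and 12.8 CPM (WT) and 15.6 and 15.5 CPM (labelled KO). The range over all 16 libraries was 9.67 to 22.7 CPM, with the Il1f9 WT tumours at its lower end. Both Il1f9 KO colitis libraries lay inside that range, so the low Camk2b was seen in the KO tumours and not in the KO colitis of the same line. Ordered by mean, the other 7 groups ran from 10.0 CPM in the Il1f9 WT tumours to 16.5 CPM in Il1f9 WT colitis, and groups next to each other in that order overlapped, while the Il1f9 WT tumours lay wholly below Il1f9 KO colitis and below both tumour groups of the Il1f5 line.

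**Figure D2:**
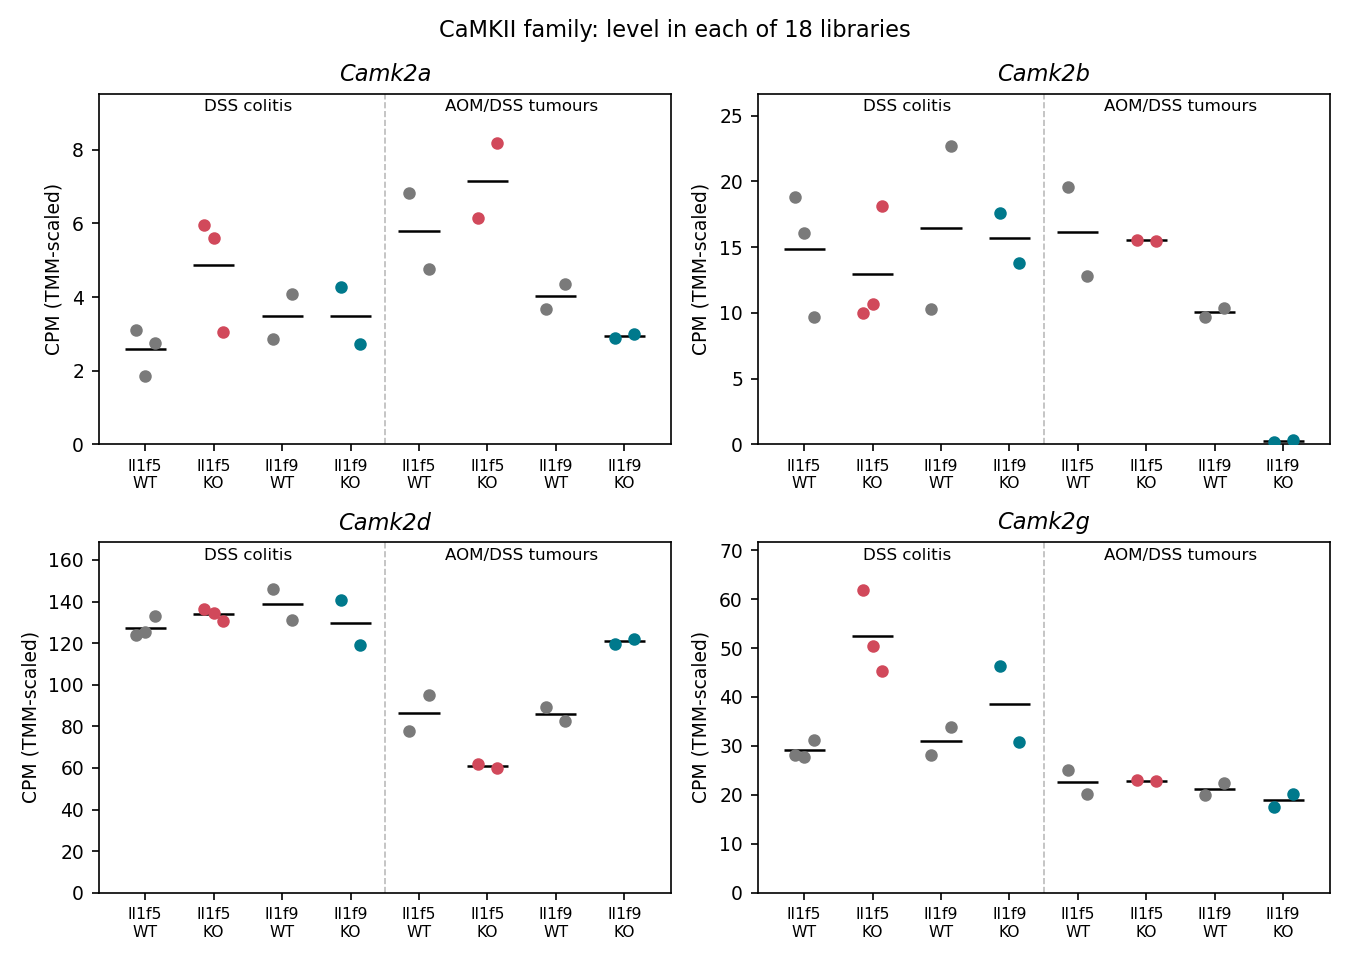
TMM-scaled CPM (vertical axes, linear and starting at 0) of the 4 CaMKII genes in each library, with a short horizontal line at each group mean. Camk2b falls to 0.181 and 0.300 CPM in the Il1f9 KO tumours against 9.67 to 22.7 CPM in the other 16 libraries. Camk2g stands at 45.2 to 61.8 CPM in the 3 colitis libraries labelled Il1f5 KO and at 46.3 CPM in Il1f9 KO colitis replicate 1.

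The low value was not shared by the genes around Camk2b. No other annotated gene overlaps Camk2b. Of 35 genes within 1000 kb on either side that had a mean log2 CPM of at least 1, the log2 fold change in the Il1f9 KO tumours ran from -1.26 (Adcy1, an adenylate cyclase gene 997 kb away) to 0.72 (Emid1), with a median of 0.02. The nearest gene on each side, Ykt6, encoding a vesicle fusion protein, had -0.31 at a gap of 1.86 kb, and Nudcd3 had 0.28 at 39.3 kb. These neighbours are a description of the same contrast and were not tested.

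**Figure D3:**
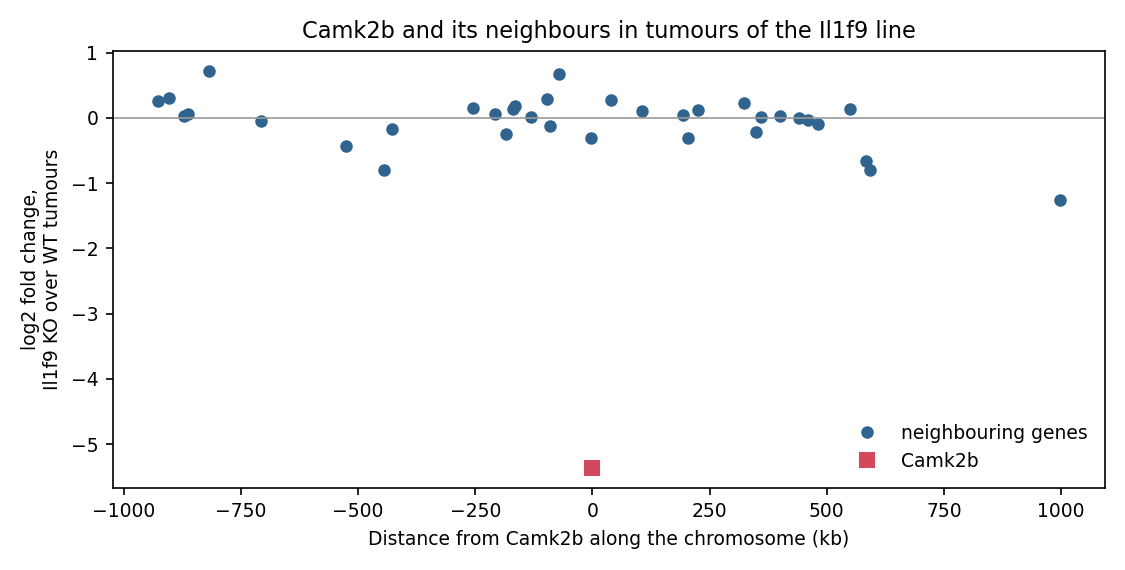
Log2 fold change between Il1f9 KO and WT tumours (vertical axis) of 35 genes within 1000 kb of Camk2b, against the gap to Camk2b in kb (horizontal axis, negative towards lower coordinates). The neighbours lie between -1.26 and 0.72, and Camk2b at -5.36.

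Cell type markers were read beside the Camk2b value, since in bulk tissue fewer cells of a type and less RNA per cell cannot be told apart. Markers of enteric neurons, the kind of cell for which the beta isoform is best known, summed to 121 and 109 CPM in the Il1f9 WT tumours and to 115 and 59.7 CPM in the KO tumours, and none of the 13 markers was at 0 in that group. Enteroendocrine markers summed to 30.4 and 50.1 CPM in WT and 28.8 and 43.6 CPM in KO. Smooth muscle markers summed to 250 and 161 CPM in WT and to 149 and 1074 CPM in KO. Neutrophil markers summed to 3996 and 1709 CPM in WT and 876 and 1621 CPM in KO. None of the 84 markers tested passed the edgeR quasi-likelihood test in this comparison, 10 had an unadjusted p under 0.05, DESeq2 called 2, Cd14 and Lum, and edgeR with no filter on low counts called 19 of the list genes, among them Acta2, Myh11 and S100a8. Over all 17859 genes tested, 1553 had an unadjusted p under 0.05 and DESeq2 called 158. With no filter edgeR called 791 of 31234 genes. The part of cell content in the Camk2b value was not tested.

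The other 3 members moved little in the same contrast, again as a description. Camk2d read 89.3 and 82.6 CPM in the Il1f9 WT tumours and 120 and 122 CPM in the KO tumours, which do not overlap, for a log2 fold change of 0.47. Camk2a read 3.68 and 4.36 CPM against 2.89 and 3.00 CPM, which do not overlap either, for -0.47. Camk2g read 20.1 and 22.4 CPM against 17.6 and 20.1 CPM, which overlap, for -0.19. Groups of 2 against 2 without overlap were seen for 33.8% of all genes tested here, and 0.0168% of the genes tested (3 of 17859) passed the test, so separation of the Camk2d and Camk2a values is common among genes in this comparison. The tumour libraries of the Il1f5 line gave Camk2d in the opposite order, 77.7 and 95.1 CPM in WT and 61.7 and 59.9 CPM in those labelled KO.

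Camk2g (ENSMUSG00000021820, chr14:20734875-20794088, minus strand), the gamma subunit gene, was the member that passed the edgeR test in colitis labelled Il1f5 KO; Camk2a, with a log2 fold change of 0.91, passed with DESeq2 but not with edgeR. It read 28.2, 27.8 and 31.2 CPM in Il1f5 WT colitis and 61.8, 50.5 and 45.2 CPM in the colitis libraries labelled Il1f5 KO. Every library labelled KO lay above every WT library. The rise was 1.81-fold (log2 fold change 0.85 ± 0.16 SE, adjusted p = 0.00506, edgeR quasi-likelihood test with Benjamini-Hochberg adjustment over all genes tested), and it passed in each alternative fit, with adjusted p of 0.00236 to 0.0293 when 1 library was left out. In that comparison 24.7% of all genes tested passed, and 13.7% passed as higher, so 1 called member of 4 is close to the background share. Libraries without overlap were seen for 44.7% of genes.

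Markers of several cell types rose beside Camk2g in the same libraries. All 13 enteric neuron markers passed as higher, with a summed level of 198 to 299 CPM against 89.0 to 128 CPM in WT. Of 12 smooth muscle markers 10 passed as higher, with sums of 6105, 5013 and 4310 CPM in the libraries labelled KO and 2563 to 2851 CPM in WT. All 6 endothelial markers and 6 of 7 fibroblast markers were also higher. Epithelial markers summed to 10767 to 12561 CPM against 13293 to 14174 CPM in WT, with Cdh1 and Krt18 called lower. Their part in the Camk2g difference was not tested.

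In the Il1f9 line Camk2g read 28.1 and 34.0 CPM in WT colitis and 46.3 and 30.8 CPM in KO colitis. The groups overlapped, and the log2 fold change of 0.31 ± 0.19 SE did not pass (adjusted p = 0.289, edgeR). Smooth muscle markers were higher in this comparison, 11 of 12 called, with sums of 5383 to 6055 CPM in KO against 1919 to 3323 CPM in WT, while no enteric neuron marker was called higher and Ret was called lower. The difference between the KO effects of the 2 lines on Camk2g was -0.54 ± 0.25 SE (adjusted p = 0.132, edgeR), so the 2 effects were not shown to differ; without Il1f9 KO replicate 1, which held the higher KO value, it was -0.86 (adjusted p = 0.0297). With WT and KO of the Il1f5 line exchanged, that difference would be 1.16, a value not tested. The WT colitis libraries of the 2 lines did not differ in Camk2g (log2 fold change 0.09 ± 0.18 SE, adjusted p = 0.777) beyond their spread.

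Camk2a (ENSMUSG00000024617, chr18:60925618-60988152, plus strand), the alpha subunit gene best known from excitatory synapses, was the least abundant member outside the Il1f9 KO tumours. It read 3.10, 1.87 and 2.76 CPM in Il1f5 WT colitis and 5.94, 5.61 and 3.04 CPM in colitis labelled Il1f5 KO, or 31 to 66 against 55 to 115 counts. Replicate 3 of those labelled KO lay within the WT range. The log2 fold change was 0.91 ± 0.31 SE, and the test did not pass (adjusted p = 0.0508, edgeR). It passed with DESeq2 (adjusted p = 0.0304), with no filter on low counts (0.0135) and without Il1f5 KO replicate 3 (0.0105). The Il1f9 line gave 2.87 and 4.09 CPM in WT and 4.26 and 2.73 CPM in KO colitis, with a log2 fold change of 0.00 ± 0.37 SE.

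Camk2d (ENSMUSG00000053819, chr3:126596302-126846326, plus strand), the delta subunit gene, was the most even member in colitis. The 10 colitis libraries had a lowest value of 119 CPM, a median of 132 CPM and a highest of 146 CPM. KO over WT was 0.07 ± 0.08 SE in the Il1f5 line and -0.10 ± 0.10 SE in the Il1f9 line on the log2 scale, neither called (adjusted p = 0.564 and 0.552, edgeR). A further 8 annotated genes lie within the span of Camk2d, 7 of them on its strand, and the library kit did not keep the strand. Camk2a holds 2 microRNA genes, Mir6982 and Mir7220, and Camk2g overlaps no other gene.

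No member was called by edgeR in 4 of the colitis and tumour comparisons. In Il1f9 KO colitis 0 of 4 passed with edgeR, 0 had an unadjusted p under 0.05 and DESeq2 called 0, where 19.6% of all genes passed. The same 3 counts were 0, 0 and 0 for the difference between the lines, with a background of 24.8%, and for the WT colitis of 1 line against the other, with a background of 4.93%. In the tumours of the Il1f5 line edgeR called 0 of 4 members, where 0.028% of all genes (5 of 17859) passed. There 1 member had an unadjusted p under 0.05, beside 4106 of the 17859 genes. DESeq2 called 1 member, Camk2d, beside 1230 of the 17859 genes. Camk2d had a log2 fold change of -0.52 ± 0.15 SE there (adjusted p = 0.0971 with edgeR and 0.0398 with DESeq2), with no overlap between WT and KO, a separation seen for 63.7% of genes in that comparison.

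**Figure D4:**
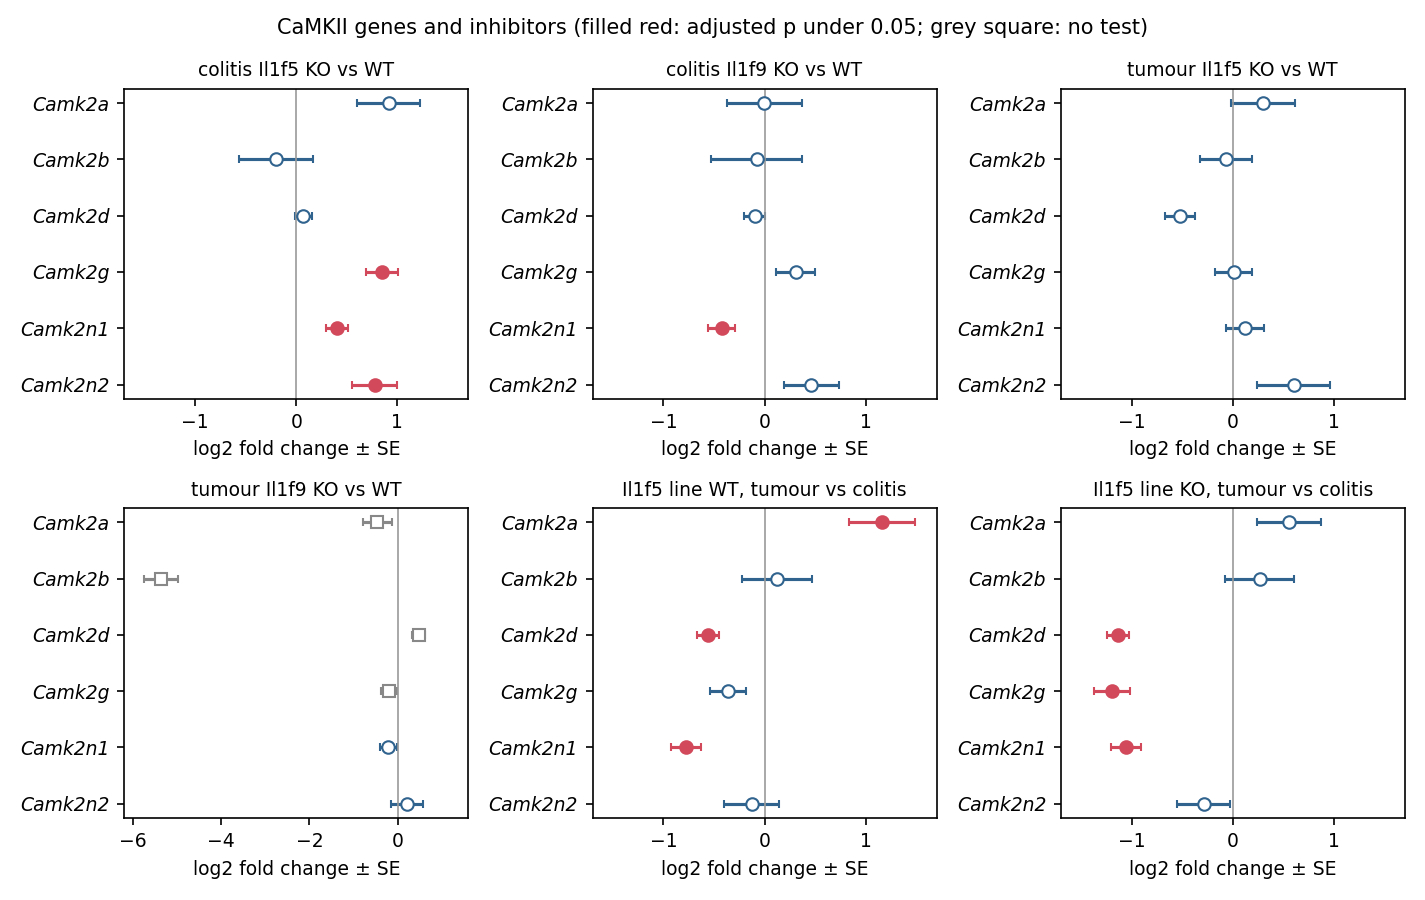
Log2 fold change (horizontal axes, with SE bars) of the 4 CaMKII genes and of the inhibitors Camk2n1 and Camk2n2 in 6 comparisons. Filled red points passed at an adjusted p under 0.05, open blue points did not, and grey squares mark the contrast on which the family was picked, given with no test; its axis is wider because Camk2b stands at -5.36.

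The tumours were set against colitis within the Il1f5 line, WT with WT and labelled KO with labelled KO. These comparisons use the same libraries as those above and are not independent of them. Camk2d was lower in tumours in both. In WT it read 124, 125 and 133 CPM in colitis and 77.7 and 95.1 CPM in tumours (log2 fold change -0.56 ± 0.11 SE, adjusted p = 6.3e-04, edgeR). In the libraries labelled KO it read 136, 135 and 131 CPM in colitis against 61.7 and 59.9 CPM (-1.14 ± 0.11 SE, adjusted p = 5.5e-07).

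Camk2g read 61.8, 50.5 and 45.2 CPM in the colitis labelled Il1f5 KO and 23.0 and 22.8 CPM in the tumours labelled KO (log2 fold change -1.20 ± 0.18 SE, adjusted p = 3.8e-05, edgeR). In WT it read 27.8 to 31.2 CPM in colitis and 25.0 and 20.2 CPM in tumours, and the log2 fold change of -0.36 ± 0.17 SE did not pass (adjusted p = 0.108; 0.0379 when only these 2 groups were fitted). Camk2a was higher in WT tumours, at 6.83 and 4.76 CPM against 1.87 to 3.10 CPM in colitis (1.16 ± 0.32 SE, adjusted p = 0.0090). That call was lost without WT tumour replicate 1 (adjusted p = 0.114). In the libraries labelled KO the Camk2a difference was 0.55 ± 0.32 SE (adjusted p = 0.147). Camk2b was called in neither, with 0.13 ± 0.34 SE in WT and 0.27 ± 0.34 SE in those labelled KO.

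The 2 called members of 4 in each of these comparisons stand beside a background of 41.7% of genes called in WT and 56.3% in the libraries labelled KO. Camk2a, Camk2d and Camk2g, called or not, did not overlap between tissues in either comparison, as was the case for 70.5% and 71.3% of all genes. Camk2b overlapped in both. Cell content differed between the tissues. All 12 smooth muscle markers were lower in tumours in both comparisons, with sums of 336 to 438 CPM in the 4 tumours of the Il1f5 line against 2563 to 6105 CPM in its colitis libraries. Enteric neuron markers were lower for 10 of 13 in WT and 12 of 13 in the libraries labelled KO, and all 6 enteric glia markers were lower in both. Their part in the Camk2d, Camk2g and Camk2a differences was not tested.

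In the Il1f9 line the same 2 tissues are given side by side as a description. Camk2d read 146 and 131 CPM in WT colitis and 89.3 and 82.6 CPM in WT tumours, and 141 and 119 CPM in KO colitis against 120 and 122 CPM in KO tumours. Camk2g read 28.1 and 34.0 CPM against 20.1 and 22.4 CPM in WT, and 46.3 and 30.8 CPM against 17.6 and 20.1 CPM in KO. The Camk2d values of the KO tumours thus lay inside the range of the colitis libraries, at its lower end. Only Il1f9 KO colitis replicate 2, at 119 CPM, lay below them, and the other colitis libraries read 124 CPM or more. The other 6 tumours, which ran from 59.9 to 95.1 CPM, lay below that range.

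Camk2n1 and Camk2n2 encode the endogenous CaMKII inhibitors, proteins that bind the active kinase domain and block it. Camk2n1 was far the more abundant, with a median of 229 CPM in colitis and 138 CPM in tumours, against 3.28 and 2.76 CPM for Camk2n2. Camk2n1 read 212, 212 and 208 CPM in Il1f5 WT colitis and 254, 288 and 292 CPM in colitis labelled Il1f5 KO, without overlap. In the Il1f9 line it went the other way, from 295 and 237 CPM in WT colitis to 221 and 176 CPM in KO colitis, also without overlap, a separation seen for 61% of all genes in that comparison.

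Both Camk2n1 changes passed with edgeR, at 0.40 ± 0.11 SE (adjusted p = 0.0225) and -0.42 ± 0.13 SE (adjusted p = 0.0465), and so did the difference between them, at -0.82 ± 0.17 SE (adjusted p = 0.00721). The difference passed in every alternative fit, with adjusted p of 0.00550 to 0.0431 when 1 library was left out. The opposite directions rest on the labels of the Il1f5 line, which its Il1f5 reads went against: with WT and KO of that line exchanged, its Camk2n1 change would be -0.40 and the difference -0.02, a value not tested. The Il1f5 call was lost without Il1f5 KO replicate 2 (adjusted p = 0.0690) or without WT replicate 1, 2 or 3 (0.0717, 0.0744 and 0.0606). The Il1f9 call was lost without KO replicate 2 (0.295) or WT replicate 1 (0.222), with only the 2 groups fitted (0.101) and with the replicate number as a block (0.0778).

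Camk2n2 read 2.26, 2.77 and 3.02 CPM in Il1f5 WT colitis and 4.88, 5.37 and 3.54 CPM in colitis labelled Il1f5 KO, a rise of 0.78 ± 0.22 SE on the log2 scale (adjusted p = 0.0272, edgeR). That call was lost with the replicate block (adjusted p = 0.0543), without KO replicate 1 or 2 (0.0754 and 0.0967) and without WT replicate 1 or 2 (0.106 and 0.0766). Camk2n2 was not called in Il1f9 KO colitis, where it read 2.52 and 2.95 CPM in WT and 3.67 and 3.87 CPM in KO (adjusted p = 0.261). In tumours against colitis Camk2n1 was lower in WT (-0.78 ± 0.15 SE, adjusted p = 5.7e-04) and in the libraries labelled KO (-1.06 ± 0.15 SE, adjusted p = 2.3e-05), and Camk2n2 was called in neither. Neither inhibitor was called in the tumours of either line.

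Around the kinase, 79 genes in 5 lists cover calmodulins, other calmodulin-regulated kinases, CaMKII inhibitors and phosphatases, calcium channels and pumps, and CaMKII substrates and partners. In colitis labelled Il1f5 KO against WT, 34 of the 73 tested were higher and 5 lower, that is 53.4% called beside 24.7% of all genes, with a median log2 fold change of 0.38 beside -0.01 over all genes. Cell type markers moved with them: 46 of 100 markers tested were higher and 8 lower, 54% called with a median of 0.70, including 13 of 13 of the enteric neuron, 10 of 12 of smooth muscle and 6 of 6 of endothelium, and their part in the list changes was not tested. In Il1f9 KO colitis 5 were higher and 7 lower, 16.4% called beside 19.6% of all genes, with a median of 0.03. The difference between the lines was called for 18 of the 73, 6 towards the Il1f9 line and 12 the other way, or 24.7% called beside 24.8% of all genes. Between the WT colitis libraries 3 of 73 were called, beside 4.93% of all genes.

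The channels and pumps, which set the calcium that calmodulin reads, had 15 of 26 higher and 1 lower in colitis labelled Il1f5 KO, beside 13.7% of all genes called higher. Ryr2, a calcium release channel of the endoplasmic reticulum, rose from 6.13 ± 1.9 to 17.7 ± 4.3 CPM (SD, n = 3; log2 fold change 1.52 ± 0.24 SE, adjusted p = 0.00297, edgeR). Cacna2d1, an auxiliary subunit of voltage-gated calcium channels, rose from 26.4 ± 2.9 to 53.0 ± 11 CPM, and Atp2b4, a plasma membrane calcium pump, from 59.3 ± 8.2 to 134 ± 22 CPM. Slc8a1, a sodium-calcium exchanger, rose from 33.9 ± 4.1 to 50.1 ± 4.8 CPM. These 4 calls held in every alternative fit. Itpr3, an inositol trisphosphate receptor, was the member that fell.

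Of 12 other calmodulin-regulated kinases tested, 6 were higher and 1, Dapk2, lower, beside 13.7% of all genes called higher. Mylk, the myosin light chain kinase of smooth muscle, rose from 291 ± 38 to 509 ± 53 CPM (SD, n = 3) and Pnck, a kinase of the CaMKI group, from 3.43 ± 0.41 to 7.44 ± 1.7 CPM, and both calls held in every alternative. Camkk2, which activates CaMKI and CaMKIV, rose by 0.61 ± 0.17 SE and Eef2k by 0.32 ± 0.09 SE on the log2 scale. Without Il1f5 KO replicate 1 or 2, or WT replicate 1 or 2, the Camkk2 call was lost (adjusted p 0.0966, 0.0694, 0.0986 and 0.0597), as it was with the replicate block (0.0509). Eef2k was lost without KO replicate 1 or 2 or WT replicate 1, 2 or 3 (0.0782, 0.0984, 0.0546, 0.0782 and 0.0952).

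Of 12 inhibitors and phosphatases 5 were higher and 0 lower in the same comparison, beside 13.7% of all genes called higher. Ppm1e, a phosphatase that acts on CaMKII, rose from 4.58 ± 0.58 to 10.9 ± 2.1 CPM (SD, n = 3; log2 fold change 1.24 ± 0.21 SE, adjusted p = 0.00309, edgeR). Ppp3ca, a catalytic subunit of calcineurin, rose from 89.1 ± 3.1 to 122 ± 12 CPM. Ppp3cc, another calcineurin subunit, rose by 0.65 ± 0.18 SE on the log2 scale (adjusted p = 0.0250), a call lost without KO replicate 2 (0.0730) or WT replicate 1 (0.0750). The remaining 2 higher members were Camk2n1 and Camk2n2. No calmodulin gene was called there. Calm3 read 514 ± 68 CPM against 575 ± 26 CPM in WT (SD, n = 3; adjusted p = 0.317, edgeR). Among the 4 calmodulin genes tested, 0 had an unadjusted p under 0.05 and DESeq2 called 0.

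Among the substrates and partners, 8 of 19 were higher and 3 lower in colitis labelled Il1f5 KO, beside 13.7% of all genes called higher. Hdac5, a class IIa histone deacetylase that CaMKII phosphorylates, rose from 37.2 ± 4.2 to 62.3 ± 11 CPM (SD, n = 3). Syn1, a synaptic vesicle protein, rose from 2.04 ± 0.36 to 6.23 ± 2.2 CPM. Actn4, an actin crosslinker, fell from 1122 ± 40.2 to 790 ± 70.6 CPM. These 3 calls held in every alternative. Gria1, an AMPA receptor subunit, rose from 0.326 ± 0.13 to 1.30 ± 0.52 CPM (adjusted p = 0.0199, edgeR), a call lost without KO replicate 1 or 2 or WT replicate 1 or 2 (0.0764, 0.0529, 0.0525 and 0.0778).

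**Figure D5:**
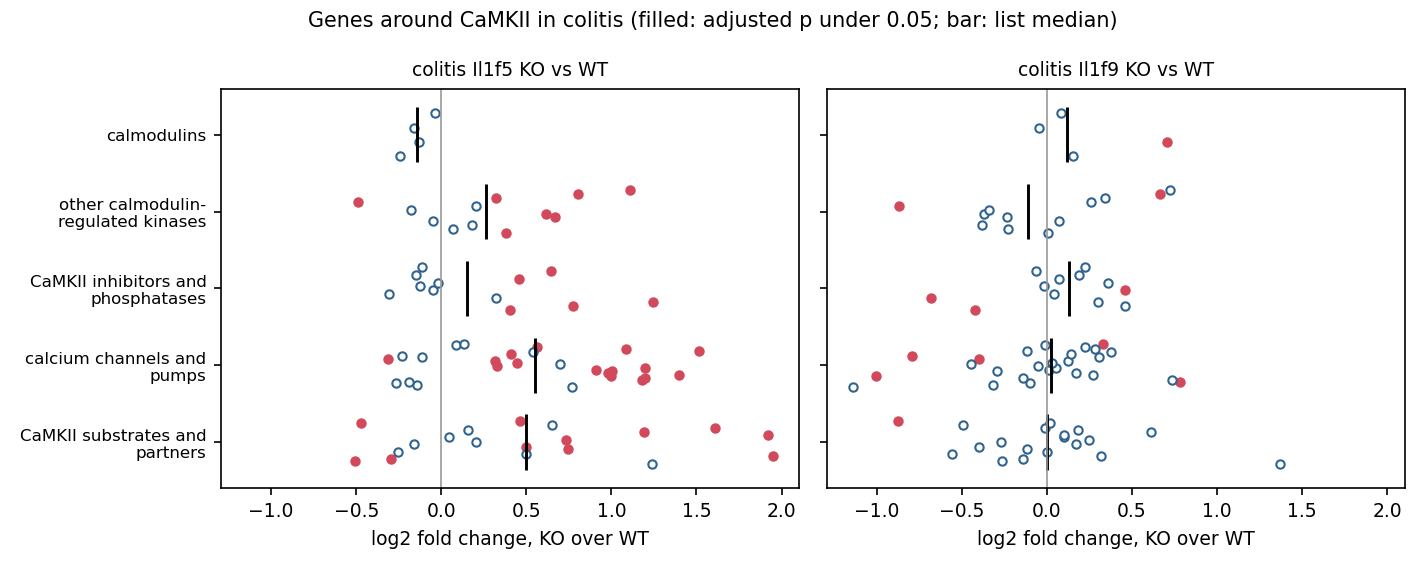
Log2 fold change, KO over WT (horizontal axes), of the genes of the 5 lists around CaMKII in colitis of the Il1f5 line (left) and the Il1f9 line (right). Filled points passed at an adjusted p under 0.05 and black bars are list medians; on the left 34 of 73 genes are called higher and 5 lower, on the right 5 higher and 7 lower.

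In Il1f9 KO colitis the called genes were few and went both ways. Calm2, a calmodulin gene, rose from 364 ± 27 to 594 ± 23 CPM (SD, n = 2; log2 fold change 0.71 ± 0.11 SE, adjusted p = 0.00169, edgeR). Dapk1, a calmodulin-regulated death-associated kinase, fell from 36.5 ± 6.7 to 20.01 ± 0.558 CPM, and Orai2, a store-operated calcium channel subunit, from 46.5 ± 2.2 to 26.8 ± 1.5 CPM. These 3 calls held in every alternative. Vim, which encodes the filament protein vimentin, fell from 242 ± 46 to 132 ± 14 CPM, a call lost without KO replicate 2 (adjusted p = 0.0513).

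Other calls of that comparison were lost when libraries were left out. Mylk rose by 0.67 ± 0.17 SE on the log2 scale and was lost without KO replicate 1 (0.126) or WT replicate 1 (0.0820). Ppm1f, a CaMKII phosphatase, had a log2 fold change of -0.68 ± 0.15 SE and was lost without KO replicate 2 (0.0945) or WT replicate 2 (0.0626). Itpr3, at -0.40 ± 0.09 SE, was lost without KO replicate 1 (0.0794). Ppp1cb rose by 0.46 ± 0.12 SE and was lost with only the 2 groups fitted (0.0558), with the replicate block (0.0540), and without KO replicate 1 or 2 or WT replicate 2 (0.0882, 0.120 and 0.143). The plasma membrane calcium pump gene Atp2b1 rose by 0.78 ± 0.20 SE and was lost without any 1 of the 4 libraries (0.0549 to 0.142). Cacna1d, a voltage-gated channel gene, had -1.01 ± 0.26 SE and was lost with the replicate block (0.0510) and without KO replicate 2 (0.152) or WT replicate 2 (0.159). Cell type markers moved in these libraries too. Macrophage markers were lower for 5 of 6, fibroblast markers for 5 of 7 and endothelial markers for 4 of 6, epithelial markers were higher for 4 of 9 and smooth muscle markers for 11 of 12, and neutrophil markers summed to 28.3 to 80.8 CPM against 597 to 1138 CPM in WT. Their part was not tested.

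In the tumours no gene of the 5 lists was called by edgeR with the filter on low counts in either line, and without the filter it called 3 in each, Calml3, Creb1 and Ppp1ca in the Il1f5 line and Cacna1h, Calml3 and Camkk2 in the Il1f9 line. Over all genes, edgeR without the filter called 1943 of 31234 in the Il1f5 line and 791 in the Il1f9 line. In the Il1f5 line 12 of the 70 tested had an unadjusted p under 0.05, beside 4106 of all 17859 genes. DESeq2 called 3 list genes there, Creb1, Kalrn and Ppp1ca, beside 1230 of all genes. In the Il1f9 line 6 had an unadjusted p under 0.05, beside 1553 of all genes. DESeq2 called 1 list gene there, Camkk2, beside 158 of all genes. The list medians stayed near the medians of all genes, at -0.01 and -0.02 for the 70 genes.

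Abundant members of each list show the level at which this was measured. Calm2 read 549 ± 16.6 CPM (SD, n = 2) in Il1f5 WT tumours and 548 ± 11.9 CPM in those labelled KO, and 832 ± 77.2 against 822 ± 17.97 CPM in Il1f9 WT and KO tumours. On the log2 scale, KO over WT in the Il1f5 and the Il1f9 line was -0.02 and -0.03 for Calm2, 0.13 and -0.50 for Camk1d, 0.18 and 0.19 for Eef2k, -0.07 and -0.33 for Ppp1cb, and 0.74 and -0.11 for Ppp1ca. It was 0.26 and -0.17 for Atp2a2, 0.30 and 0.05 for Itpr3, 0.24 and 0.07 for Actn4, and -0.46 and 0.08 for Vim. Ppp1ca in the Il1f5 line, a catalytic subunit of protein phosphatase 1, came nearest to a call (adjusted p = 0.0891 with edgeR, 0.00314 with edgeR and no filter, and 0.0220 with DESeq2).

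Between tumours and colitis of the Il1f5 line the lists mostly fell. In WT 9 of 75 genes were higher and 39 lower in tumours, 64.0% called beside 41.7% of all genes, and in the libraries labelled KO 8 were higher and 42 lower, 66.7% beside 56.3%. Of the 26 channels and pumps 18 were lower in WT and 20 in those labelled KO. Slc8a1 fell from 33.9 ± 4.1 CPM (SD, n = 3) in WT colitis to 2.05 ± 0.86 CPM (n = 2) in WT tumours, and Ryr2 from 6.13 ± 1.9 to 0.394 ± 0.081 CPM. Itpr2 fell from 33.1 ± 3.5 to 13.4 ± 2.1 CPM and Atp2a3, a pump of the endoplasmic reticulum, from 922 ± 109 to 321 ± 54.9 CPM. Mylk fell from 291 ± 38 to 67.0 ± 5.3 CPM, Pnck from 3.43 ± 0.41 to 0.764 ± 0.195 CPM and Ppm1e from 4.58 ± 0.58 to 1.21 ± 0.49 CPM.

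Other called genes of the WT tissue comparison were Nos1, neuronal nitric oxide synthase, from 11.0 ± 3.3 to 0.592 ± 0.23 CPM, Hdac9, Actn4, Calm3 and Calml4, all lower, and Vim and Calm2, both higher. Camkv, a pseudokinase that resembles CaMK, had 0 counts in the 3 WT colitis libraries and 3.86 ± 1.2 CPM in the WT tumours. Dapk1 and Ppp3ca were lower, calls lost without WT tumour replicate 2 (adjusted p = 0.201) and without WT tumour replicate 1 (0.114). Calml3 was higher at 8.27 ± 10.2 CPM in tumours, a call lost without WT tumour replicate 2 (0.201) and without WT colitis replicate 1, 2 or 3 (0.0623, 0.0605 and 0.0718). In the libraries labelled KO, Ryr2, Ryr3, Slc8a1, Atp2b4, Mylk, Camkk2, Pnck, Ppm1e, Ppp3ca, Camk2n1, Kalrn, Nos1, Hdac9 and Calml4 were lower, and Camkv, Calm2, Ppp1ca and Tiam1 higher, all of them in every alternative fit. The smooth muscle, neuron and glia markers given above fell in the same comparisons, and their part in these lists was not tested.

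Genes whose pattern over the 18 libraries was most like that of a member were found by Pearson correlation of log2 CPM among 12764 genes with a mean log2 CPM of at least 1. These correlations are descriptions over libraries that share tissue and line, and carry no test. For Camk2a the closest were Syt11 (r = 0.95), Sall2 (0.90) and Ccdc136 (0.90). For Camk2d they were Lmbrd1 (0.95), Fgl2 (0.95) and Nudt4 (0.94), and for Camk2g Marveld1, Ppp1r12c and Enpp1 (0.94 each). Marveld1 read 25.5 to 30.9 CPM in Il1f5 WT colitis, 52.9 to 75.6 CPM in colitis labelled Il1f5 KO and 7.23 to 18.8 CPM in tumours. Like Camk2g, it had its highest group mean in the colitis labelled Il1f5 KO and its lowest values in tumours.

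For Camk2b the likeness rested on the 2 Il1f9 KO tumours. Over all 18 libraries Derl3 (r = 0.88), Aplnr (0.87) and Efr3b (0.86) came first, and without those 2 libraries their r fell to 0.46, 0.65 and 0.19. Derl3 read 0.300 to 0.422 CPM in the Il1f9 KO tumours against 1.15 to 1.595 CPM in the WT tumours of the line, and Efr3b 0.120 to 0.300 against 1.03 to 1.29 CPM. The KO levels of both genes rest on few counts. Over the remaining 16 libraries Cx3cr1 (0.67), Aplnr (0.65) and Ccdc84 (0.64) were closest. Among the members themselves the correlation was highest between Camk2a and Camk2g in colitis (r = 0.83 over 10 libraries) and that correlation was -0.01 over the 16 libraries outside the Il1f9 KO tumours. Camk2b correlated with Camk2d at -0.09 and with Camk2g at 0.01 over those 16 libraries.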

How the data were processed

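Poly(A) RNA from 18 libraries was sequenced without strand information as paired reads of 150 bases, per the labels' protocols. Trim Galore 0.6.4, HISAT2 2.0.5 and featureCounts 2.0.0 are named in the submitters' processing notes. The genome build was not given in the sources used here, but the deposited coordinates of the 4 CaMKII genes are those of GENCODE M21 (GRCm38). The 3 deposited tables hold raw counts per gene and, beside them, FPKM values computed by the authors; how the FPKM were scaled was not given in the sources used here. Reads that match several genes or overlapping genes may have been handled in ways that lower or split a count.

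The tables were joined by gene identifier. Counts were tested with edgeR 4.0.16 (quasi-likelihood F test, TMM scaling, genes kept by filterByExpr, R 4.3.3) in 1 fit per tissue that shared the spread over all groups, and in 1 fit over all libraries for tumour against colitis. P-values were adjusted by Benjamini-Hochberg over all genes tested, and called means an adjusted p under 0.05. The edgeR script was tested on simulated data. Levels are TMM-scaled CPM computed here, and correlations use log2 CPM with a prior count of 2. Alternatives were DESeq2 1.42.0 (size factors, and its Wald test), no filter, only the groups compared, the replicate number as a block and leaving out each library.

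The 4 genes, the gene lists and the markers were chosen with earlier results of these data known. Genes named are the 4 members, Camk2n1, Camk2n2, Il1f5 and Il1f9, up to 4 called genes with the smallest p per list and comparison (with no call, the 2 most abundant), and the 3 genes closest in pattern to each member. For the WT colitis libraries only list totals are given, and other names were chosen after their values were seen. Replicate libraries differed by more than sampling noise in every group, so none was counted as a duplicate. A result that concerns a withheld item is not reported here.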

Additional observations from a re-analysis of the deposited data

Results flagged for a closer look

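The difference between the KO effects of the 2 lines in colitis (Il1f9 line minus Il1f5 line, log2) was called by edgeR for 24.8% of all genes tested. Of the genes tested from the 5 lists 24.7% were called, close to that background share. It passed the edgeR test for Camk2n1, at -0.82, and for 15 further genes named from the lists. Toward the Il1f9 line these were Calm2 at 0.84, Atp2b1, a calcium pump, at 0.98, Dapk2 at 0.74, Ppp1cb at 0.51 and Ppp3cb at 0.34. In the other direction were Cacna1d at -2.01, Ryr2 at -1.64, Syn1 at -1.62, Vim at -1.34, Cacna2d1 at -1.30, Dapk1 at -1.08, Ppm1f at -1.004, Camkk2 at -0.98, Hdac9 at -0.90 and Hdac5 at -0.86.

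Calm2, Dapk1, Ppm1f, Camk2n1, Cacna1d, Cacna2d1 and Vim, 7 of the 16, passed in every alternative fit. The other 9 were lost when single libraries were left out. Without Il1f9 WT replicate 2 the adjusted p was 0.0896 for Camkk2, 0.174 for Dapk2, 0.146 for Ppp1cb, 0.175 for Ppp3cb, 0.0622 for Ryr2, 0.101 for Atp2b1, 0.0567 for Hdac9, 0.0660 for Hdac5 and 0.147 for Syn1. Without Il1f9 KO replicate 2 it was 0.0997 for Camkk2, 0.102 for Dapk2, 0.133 for Ppp1cb, 0.163 for Ppp3cb, 0.0513 for Ryr2, 0.0800 for Atp2b1, 0.0727 for Hdac9, 0.0869 for Hdac5 and 0.136 for Syn1. Ppp3cb was lost without any 1 of the 10 colitis libraries, 0.0508 to 0.175. Cell type markers also differed between the lines' KO effects in these libraries: toward the Il1f5 line all 6 macrophage, all 5 neutrophil, all 6 endothelial, 6 of 7 fibroblast and 5 of 13 enteric neuron markers, and toward the Il1f9 line 6 of 9 epithelial markers. Their part was not tested.

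These directions rest on the labels of the Il1f5 line, whose Il1f5 reads were found only in the libraries labelled KO. With WT and KO of that line exchanged, and with no test, the difference would be -0.02 for Camk2n1, -0.0060 for Cacna1d, 0.0405 for Ppp3cb and 0.0945 for Hdac9. It would be 0.59 for Atp2b1, 0.58 for Calm2, 0.41 for Ppp1cb, -0.66 for Dapk1, -0.36 for Ppm1f and -0.41 for Vim. Hdac9 would change sign, as would Cacna2d1 (0.71), Camkk2 (0.24), Dapk2 (-0.23), Hdac5 (0.63), Ryr2 (1.398) and Syn1 (1.599).

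As labelled, Camk2d went opposite ways in the tumours of the 2 lines. From the mean CPM, KO over WT was -0.51 on the log2 scale in the Il1f5 line and 0.49 in the Il1f9 line, with no overlap between KO and WT libraries in either. This difference was not tested, and with WT and KO of the Il1f5 line exchanged Camk2d would be 0.51 and 0.49, the same direction in both lines.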

How the results depend on the processing

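Over 1608 recomputed values, 1405 kept their direction and their side of the threshold, 112 lost a call, 8 gained one, 46 changed sign and 37 moved. The number of genes called was least stable in tumours: in the Il1f5 line 5 became 1230 with DESeq2's Wald test, 1943 with no filter, 1026 with only the groups compared, 9 with the replicate block and 2 to 7 without 1 library, and in the Il1f9 line 3 became 158, 791, 0 (only the groups compared) and 4 to 97. Between the WT colitis libraries 902 became 2065, 1712, 1806, 303 (block) and 118 (without Il1f9 WT replicate 2) to 1126. Leaving out 1 library gave 1964 to 5586 calls for the Il1f5 KO effect in colitis, 1393 to 3396 for Il1f9, 1961 to 5844 for their difference, and 5367 to 6953 for WT tumour against colitis. The cause was not tested. No paired design is stated. Same-numbered libraries correlated at -0.127 to -0.00188 in their deviations from the group means. In groups of 2 libraries the deviations mirror each other, so their values cannot decide whether libraries were paired. With the replicate number as a block, calls were 3296 (Il1f5) and 2655 (Il1f9) in colitis. In the Il1f5 colitis groups no library correlated best with its own number in the other genotype.

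Among members, Camk2a in Il1f5 colitis passed at 0.92 with DESeq2 and at 0.92 with no filter, ranging from 0.73 to 1.18 without 1 library, and in Il1f9 colitis changed sign near 0 (0.0027 with DESeq2's size factors, 0.0033 with its Wald test, -0.35 to 0.28). Camk2d in Il1f5 tumours passed at -0.55 with DESeq2. Camk2g in Il1f5 tumours was -0.027 with both DESeq2 settings, -0.031 with only the groups compared and -0.12 to 0.17 without 1 library, and in WT tumour against colitis it passed at -0.35 with only the groups compared. Without 1 library Camk2a in WT tumour against colitis was 0.89 to 1.42. Camk2b was -0.49 to 0.012 (Il1f5 colitis), -0.54 to 0.60 (Il1f9 colitis), -0.33 to 0.27 (Il1f5 tumours), -0.35 to 0.78 (difference), -0.53 to 0.61 (between WT) and -0.20 to 0.41 (WT tissue). Camk2d in Il1f9 colitis was -0.22 to 0.0095. Camk2g was -0.0078 to 0.56 (Il1f9 colitis), -0.86 to -0.29 (difference) and -0.057 to 0.22 (between WT). Camk2n1 in Il1f5 tumours was -0.074 to 0.25. Camk2n2 was -0.29 to 0.051 (WT tissue), -0.067 to 0.44 (Il1f9 tumours) and -0.0998 to 0.13 between WT, with -0.023 under the block. In Il1f5 tumours Calm2 was 0.016 with no filter and -0.065 to 0.031, and Camk1d -0.18 to 0.36. In Il1f9 tumours Calm2 was 0.0034 with only the groups compared and -0.12 to 0.048, Eef2k -0.016 to 0.36, Ppp1ca -0.28 to 0.075, Atp2a2 -0.44 to 0.049, Itpr3 -0.22 to 0.27, Actn4 -0.15 to 0.25 and Vim -0.69 to 0.58. With the longest coding transcript as length, which was chosen after seeing the data, Camk2a took 1.85% of the family in colitis and 4.04% in tumours, Camk2d 62.2% and 62.4%, and Camk2g 26.4% and 23.0%. Camk2a rests on 31 to 156 counts per library.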
